A study of Mus musculus with 8 samples.

Results

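The Hox genes were taken as the loci of the RNA-Seq count table whose most frequent named entry was a Hox gene of cluster A, B, C or D, which gave 39 genes on 51 of the 44396 loci. They form the HoxA cluster (11 genes), the HoxB cluster (10 genes), the HoxC cluster (9 genes) and the HoxD cluster (9 genes), so that all genes of each cluster lie beside each other on one chromosome. RNA-Seq (raw counts per locus) and ChIP-Seq peaks of H3K27me3 (histone H3 trimethylated at lysine 27) were compared between control and morphine-treated mESCs (mouse embryonic stem cells). Both groups were the Oct4-GFP reporter line, grown without feeders on 0.1% gelatin in serum-replacement medium with LIF and 2i. Control cells received 0.9% NaCl in the medium and treated cells 10 µM morphine for 24 h. The protocol also describes later collections after withdrawal, and no label assigns a library to one. In the paper, sequencing followed 24 h of treatment, and the later collections were assayed by immunoblot and qPCR. Each group had 2 libraries for each assay, and all cells were of 1 line. The methods call the ChIP-Seq replicates biological and the RNA samples duplicates, and nothing states whether they came from separate cultures. The p-values measure the spread between these libraries, part of which may be technical.

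Hox genes encode homeodomain transcription factors that give cells their position along the body axis. In the embryo they are switched on in the order in which they lie in the cluster, from the anterior genes at the 3′ end to the posterior genes at the 5′ end. Polycomb Repressive Complex 2 (PRC2) writes H3K27me3, and in embryonic stem cells the Hox clusters are known as broad domains of this mark, with little transcription. The comparison asks whether the mark or the RNA of these clusters differed after morphine.

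No H3K27me3 peak lay in any of the 4 Hox clusters in any of the 4 libraries, and RNA of most Hox genes was low in both groups. Per the methods, a Hox region had served as the positive control of the pull-down by qPCR before library preparation, and that qPCR is not analysed here. The count of 0 thus holds for the deposited peak lists over the whole clusters. The qPCR instead used a primer pair in a Hox region whose cluster is not named. Of the 39 genes, 17 passed the expression filter (0.358 CPM, read counts normalised for library size, in at least 2 of the 4 libraries), and 0 of them differed between morphine and control at a false discovery rate (FDR) of 0.05. The most abundant Hox RNAs were those of the posterior genes Hoxc13 and Hoxc12, which together held 46.5% ± 2.18 (SD, n = 2) of the Hox level summed per kb of locus length in control cells against 45.7% ± 1.65 (SD, n = 2) after morphine.

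In the mm10 build, the HoxA cluster spanned chr6:52155367-52260880 (105.514 kb, 14 loci) on the minus strand, with Hoxa13 at the higher coordinate. The HoxB cluster spanned chr11:96194361-96368253 (173.893 kb, 12 loci), the HoxC cluster chr15:102921131-103036852 (115.722 kb, 11 loci) and the HoxD cluster chr2:74668310-74765142 (96.833 kb, 14 loci), all on the plus strand and with the posterior genes at the lower coordinate. Several loci of one gene overlap and carry the same reads, so each gene is given by its longest locus and the loci of one gene are not added.

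Promoter sequences are shown because PRC2 in mammals is known to be recruited to DNA rich in CpG. CpG dinucleotides (the letters CG, which read the same on both strands) are in capitals. Of the 39 genes, 22 matched 24 promoters of the RefSeq promoter table (GRCm38.p6, which has the coordinates of mm10). Genes without an entry included Hoxa4, Hoxb2, Hoxb3, Hoxb5, Hoxb6, Hoxb7, Hoxb9, Hoxb13, Hoxc5, Hoxc6, Hoxc8, Hoxc9, Hoxc10, Hoxc11, Hoxc12 and Hoxc13. Shown for HoxA, HoxB and HoxD is the promoter with the most CpG among genes past the expression filter, leaving out windows with an annotated exon, and the Hoxa9 promoter, which had the fewest CpG of all Hox windows without an exon. Each is the 250 bases before the start, at chr6:52204588-52204837 for Hoxa5 (minus strand), chr11:96318017-96318266 for Hoxb4 (plus), chr2:74667975-74668224 for Hoxd13 (plus) and chr6:52227371-52227620 for Hoxa9 (minus).
Hoxa5: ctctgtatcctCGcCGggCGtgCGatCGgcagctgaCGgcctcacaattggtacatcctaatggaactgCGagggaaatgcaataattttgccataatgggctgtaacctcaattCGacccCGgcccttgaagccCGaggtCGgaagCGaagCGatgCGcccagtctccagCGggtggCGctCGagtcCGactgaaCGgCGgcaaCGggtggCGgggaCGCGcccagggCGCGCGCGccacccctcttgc
Hoxb4: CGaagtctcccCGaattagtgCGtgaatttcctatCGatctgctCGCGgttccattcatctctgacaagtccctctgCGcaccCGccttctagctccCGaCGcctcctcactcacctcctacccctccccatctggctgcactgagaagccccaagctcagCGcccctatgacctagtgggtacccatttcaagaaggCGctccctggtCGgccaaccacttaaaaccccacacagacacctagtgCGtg
Hoxd13: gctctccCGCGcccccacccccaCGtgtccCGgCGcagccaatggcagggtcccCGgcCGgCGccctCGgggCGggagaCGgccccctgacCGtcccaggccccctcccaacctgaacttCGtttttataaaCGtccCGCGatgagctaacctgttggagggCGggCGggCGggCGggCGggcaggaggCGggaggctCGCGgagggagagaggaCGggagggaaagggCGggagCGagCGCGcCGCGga
Hoxa9: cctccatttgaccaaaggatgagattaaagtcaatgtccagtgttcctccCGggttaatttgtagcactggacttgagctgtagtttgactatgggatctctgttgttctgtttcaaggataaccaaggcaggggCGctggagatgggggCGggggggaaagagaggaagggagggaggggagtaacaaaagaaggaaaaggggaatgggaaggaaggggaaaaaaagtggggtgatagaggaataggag

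These windows held 28 CpG for Hoxa5, 14 for Hoxb4, 31 for Hoxd13 and 3 for Hoxa9. Across the 24 Hox promoters the median was 12.5 CpG (range 2 to 35), against 6 over all 32851 promoters of the table, of which 31.5% held 13 or more. No Hox promoter had a peak within 1 kb in any library. Of all promoters of the table, 11.8% to 12.8% had one, depending on the library. Of the promoters with 13 or more CpG, 20.8% to 22.4% had a peak.

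For comparison with these promoters, the nearest peaks beside HoxB and beside HoxC that were called in all 4 libraries are shown by the 250 bases at their centre, at chr11:96147908-96148157 and chr15:102788390-102788639 (plus strand, neither in an exon).
HoxB peak: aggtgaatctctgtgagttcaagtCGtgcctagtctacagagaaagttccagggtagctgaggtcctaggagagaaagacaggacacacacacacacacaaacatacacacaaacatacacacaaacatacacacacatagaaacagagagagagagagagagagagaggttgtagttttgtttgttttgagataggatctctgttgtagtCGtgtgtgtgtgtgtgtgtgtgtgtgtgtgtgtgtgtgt
HoxC peak: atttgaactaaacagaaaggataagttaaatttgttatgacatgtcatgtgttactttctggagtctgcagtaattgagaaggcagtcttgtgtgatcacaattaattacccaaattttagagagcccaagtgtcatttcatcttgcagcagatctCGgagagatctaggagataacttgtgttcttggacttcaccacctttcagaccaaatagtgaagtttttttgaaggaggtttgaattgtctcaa

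The window at the HoxB peak held 2 CpG and runs of CA and GT repeats, and that at the HoxC peak held 1 CpG.

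MACS called the peaks separately in each library, and the deposited score, at least 50, rises as the p-value of the peak falls. The libraries held 10305 and 13778 peaks (control replicates 1 and 2) and 8681 and 12282 peaks (morphine replicates 1 and 2), with widths of at most 8.64 kb. The number of reads behind a peak is unknown, so only presence and position were compared. Which control library the caller was given is not stated. Regions without a called peak may still carry the mark.

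The number of Hox genes with a peak within 1 kb of a transcription start site (TSS, the promoter here) was 0 of 39 in each library. Over all 55450 annotated genes, 9.17% and 9.83% had such a promoter peak in control cells against 9.14% and 9.97% after morphine. Over the 21951 protein-coding genes, the share was 16.4% and 16.9% in control cells against 16.7% and 17.4% after morphine. The count of Hox genes stayed at 0 within 3 kb and within 10 kb of a TSS, and reached 3, 2, 3 and 1 genes within 50 kb in control 1, control 2, morphine 1 and morphine 2. The share of each cluster covered by peaks was 0% in every library, which leaves nothing to test. Counting as a binding site a region with a peak in both replicates of a condition left 0 sites in each cluster, of 8077 sites in control cells against 6899 after morphine.

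Single intervals of this size often held no peak in a given library. Of all windows as long as a Hox cluster, laid side by side along the genome, 48.9% to 75.4% held no peak, depending on the library and the cluster length. Among windows that also held at least as many protein-coding genes as the cluster, 22.2% to 40% held none. Such gene-rich windows numbered 30 to 198, depending on the cluster. These shares hold for single windows in single libraries, and absence from all clusters in all libraries at once was not tested.

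**Figure D1:**
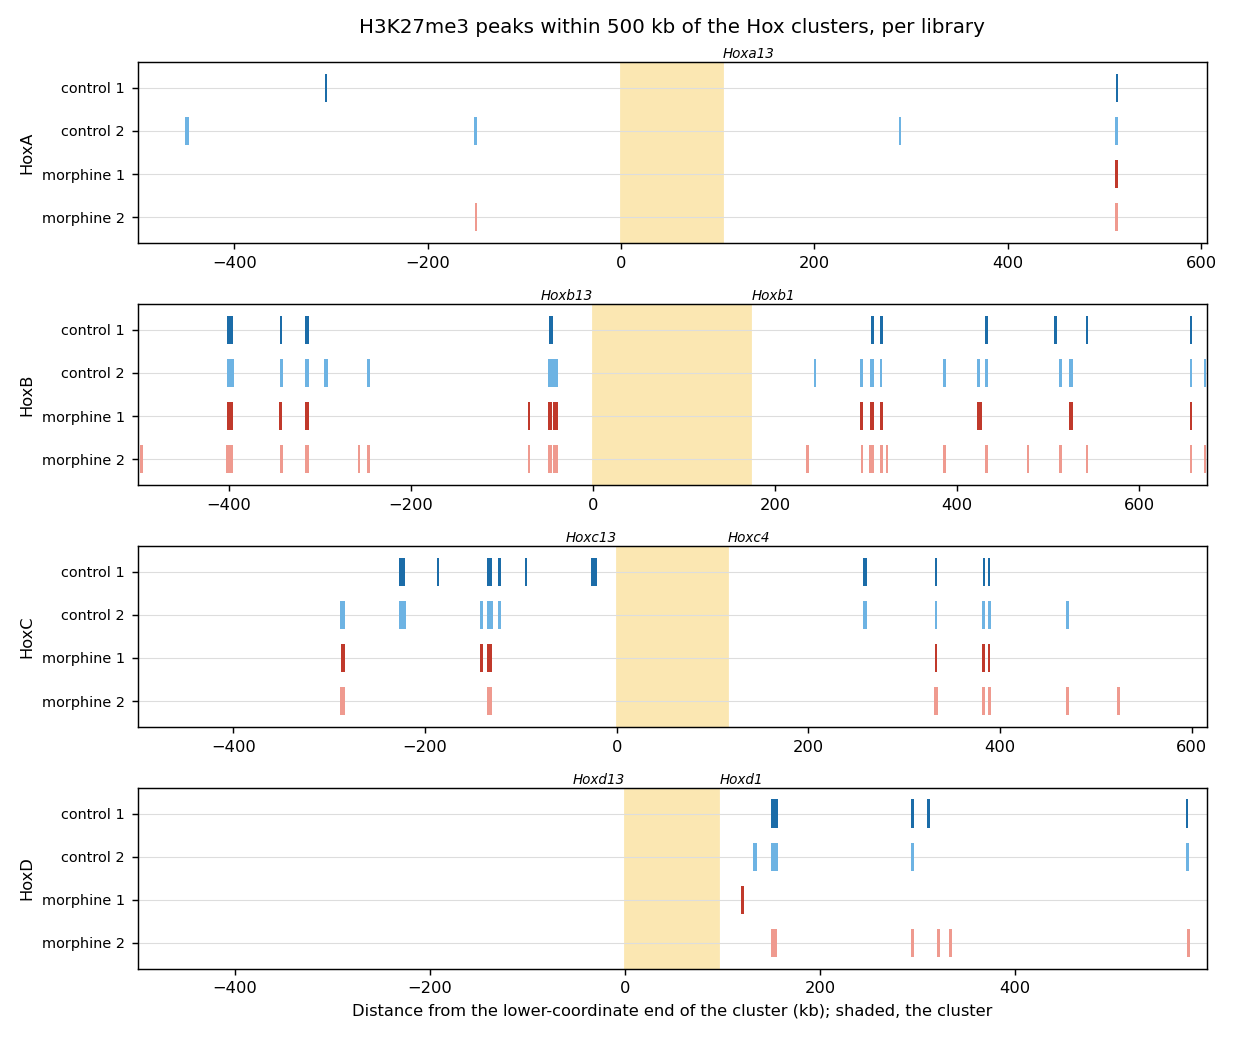
H3K27me3 peaks (bars) within 500 kb of each Hox cluster (shaded) in the 2 control and 2 morphine libraries, by distance in kb from the lower-coordinate end of the cluster, with Hox genes at its ends named above. Bars narrower than the drawing allows are widened, and no bar lies in a shaded area.

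HoxB had the nearest peaks that recurred across libraries. On the Hoxb13 side, a peak in the body of Ttll6 (a tubulin polyglutamylase) at chr11:96145635-96150430, of score 94.3 in control 1, was called in all 4 libraries. A second peak beside it was called in control 2, morphine 1 and morphine 2. The nearest peak thus lay 43.9 and 38.3 kb from the cluster in control cells against 38.5 and 38.7 kb after morphine. On the Hoxb1 side the nearest peak lay 131 and 68.5 kb away in control cells against 120 and 59.9 kb after morphine, near Skap1. The interval without a peak was 315 ± 48.1 kb (SD, n = 2) in control cells against 302 ± 42.2 kb (SD, n = 2) after morphine, a difference below the spread between replicates (exact permutation p = 0.67, two-sided).

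HoxC lay in a wider interval without peaks after morphine in both libraries. This interval measured 278 and 378 kb in control cells against 463 and 462 kb after morphine, so the groups did not overlap, at the smallest p that 2 against 2 libraries allow (exact permutation p = 0.33, two-sided). In control 1 a peak at chr15:102894810-102900234 lay 20.9 kb from Hoxc13, with a score of 56.4 near the minimum, and it was absent from the other libraries. On the Hoxc4 side, the peak nearest in both controls, 141 kb from the cluster near Smug1 (a uracil-DNA glycosylase), was called in neither morphine library. There the nearest peak overlapped Nfe2, 217 and 216 kb away, which was called in all 4 libraries. Within 500 kb of HoxC lay 10 and 10 peaks in control cells against 6 and 7 after morphine (exact permutation p = 0.33). The groups overlapped when only peaks with a score of at least 100 were counted, where the interval was 1107 and 461 kb in control cells against 463 and 462 kb after morphine. With the same number of strongest peaks taken from each library the groups did not overlap, at 351 and 453 kb in control cells against 463 and 462 kb after morphine, but the distance between them was smaller. With scores of at least 100 only, 3 and 4 peaks lay within 500 kb of HoxC in control cells against 4 and 5 after morphine.

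In the peaks of single libraries, the distances and intervals of the groups overlapped for HoxA and HoxD. The nearest peak to HoxA lay 305 and 149 kb away in control cells against 406 and 150 kb after morphine. The interval around HoxA without a peak was 626 ± 269 kb (SD, n = 2) in control cells against 946 ± 403 kb (SD, n = 2) after morphine (exact permutation p = 0.67, two-sided). HoxD had no peak for 537 kb on the Hoxd13 side in any library. On its Hoxd1 side, a peak of 6.77 kb beside the start of Mtx2 (a mitochondrial import protein), 53.1 kb from the cluster in control 1, was called in both controls and morphine 2 but not in morphine 1. Control 2 had a further peak 34.1 kb away. In morphine 1 the nearest peak lay 22.6 kb away and had a score of 50.1, near the minimum of its list. Between the binding sites, which need a peak in both replicates, the interval around HoxD measured 687 kb in control cells against 1475 kb after morphine, since the peak beside Mtx2 was absent from morphine 1. The interval between binding sites was 1230 against 1495 kb around HoxA, 348 against 332 kb around HoxB and 377 against 462 kb around HoxC. These are 1 value per condition and allow no test.

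Some genes next to or acting on the clusters had promoter peaks, where 16.4% to 17.4% of protein-coding genes had one, depending on the library. Of the 19 annotated genes beside the clusters, Mtx2 alone had one, in control 1, control 2 and morphine 2. Of the TALE cofactors (Pbx, Meis and Pknox proteins, which bind DNA together with Hox proteins), 2 and 3 of 9 had a promoter peak in control cells against 2 and 3 of 9 after morphine, with Pbx3 among them in every library. Among 21 regulators upstream of Hox genes (retinoic acid signalling, Cdx and other inducers), 4 and 3 had one in control cells against 3 and 4 after morphine. Rara and Rxra, which encode retinoid receptors, and Gdf11, a ligand that shifts Hox expression to posterior genes, had a peak in every library. Of 122 genes of developmental transcription factor families, 7.38% and 6.56% had a promoter peak in control cells against 5.74% and 6.56% after morphine. Of 34 other homeobox genes, 2, 2, 1 and 2 had one, and of 27 trithorax and Polycomb regulators 4, 5, 6 and 5, in control 1, control 2, morphine 1 and morphine 2. The developmental and the other homeobox list were chosen after the data had been seen.

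**Figure D2:**
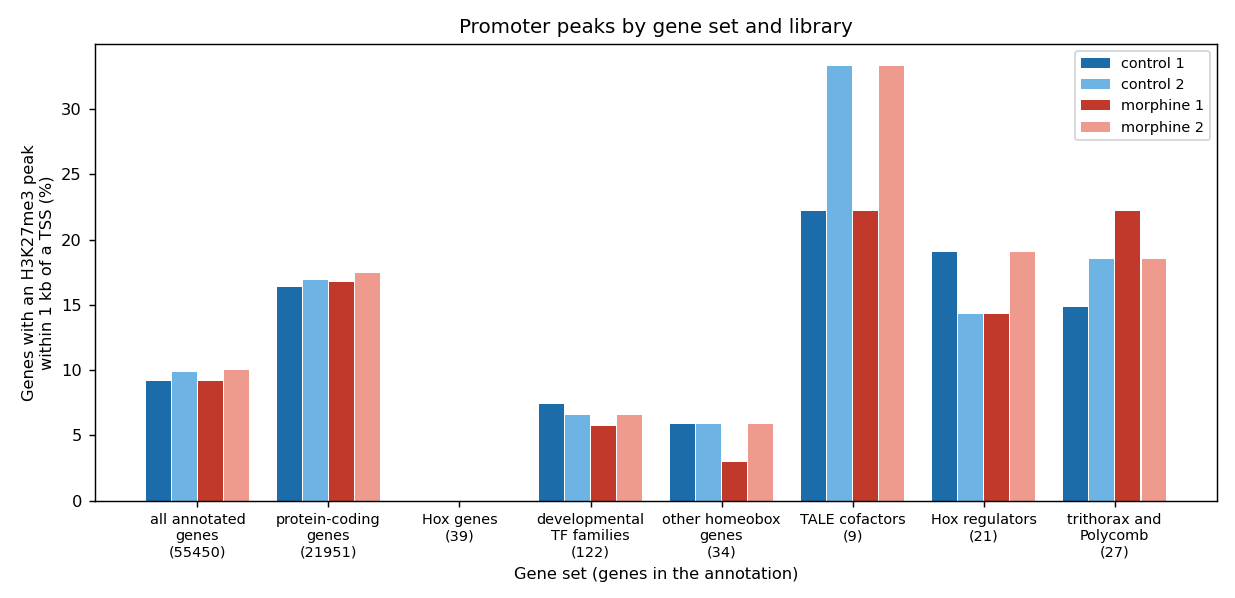
Share of genes with an H3K27me3 peak within 1 kb of a TSS (percent, bars from 0), by gene set and library, with the number of annotated genes under each set. The 39 Hox genes stood at 0 in all 4 libraries, while 16.4% to 17.4% of protein-coding genes had a promoter peak.

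RNA was measured as reads of polyadenylated RNA per locus, with a total count of 25081266 to 29531096 per library. CPM used library sizes with TMM factors, and levels of different genes are compared only per kb of locus length. The label was checked against marker genes: the 8 pluripotency markers summed to 4787 and 4744 CPM in control cells against 4957 and 4804 CPM after morphine. Markers of other cell types were low but none of these lists was at 0. Mesoderm markers summed to 6.14 to 7.70 CPM over the 4 libraries, neural markers to 41.4 to 45.3 CPM and fibroblast markers to 18.04 to 20.5 CPM. Endoderm markers summed to 18.7 and 17.0 CPM in control cells against 19.7 and 20.8 CPM after morphine, and trophoblast markers to 29.7 and 30.4 CPM and 33.1 and 33.5 CPM. Although the pluripotency sum was higher after morphine, log2 fold changes were above 0 in 2 of its markers and below 0 in 6. Of the tested mesoderm markers 2 were above 0 and 1 below, and of the neural markers 2 and 2. All 5 tested endoderm, all 4 tested trophoblast and all 4 tested fibroblast markers had log2 fold changes above 0. In each of these lists 0 were called, and the part of the markers in the Hox values was not tested. In these bulk samples, fewer cells with Hox RNA and less Hox RNA per cell cannot be told apart.

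The Hox genes together took 1247 and 1333 counts in control cells against 1180 and 1247 counts after morphine, or 45.3, 45.2, 46.6 and 44.3 CPM in the same order. These sums and those of HoxD take the loci of Hoxd3 and Hoxd4 separately, although they share exonic bases and had the same counts in each library (3 and 1 in control cells against 0 and 0 after morphine), so these reads may be counted in both. The posterior genes (paralogous groups 9 to 13, 16 genes) held 69.6% ± 0.366 (SD, n = 2) of the Hox CPM per kb in control cells against 68.9% ± 1.41 (SD, n = 2) after morphine. The anterior genes (groups 1 to 4, 12 genes) held 20.6% ± 1.13 and 20.7% ± 0.134 (SD, n = 2 each), and the central genes (groups 5 to 8, 11 genes) 9.86% ± 1.5 and 10.4% ± 1.55 (SD, n = 2 each). These shares differed between the groups by less than the larger of the SDs.

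The summed CPM of each cluster was compared between the groups only, since it is not per kb. The 9 HoxC genes summed to 26.9 and 25.9 CPM in control cells against 26.8 and 25.6 CPM after morphine. HoxA summed to 8.80 and 8.82 CPM in control cells against 9.91 and 9.09 CPM after morphine, so that both morphine libraries were higher (exact permutation p = 0.33, the smallest possible). This difference of 0.688 CPM was 0.273 without morphine replicate 1 and 1.10 without morphine replicate 2. HoxB summed to 5.45 and 6.11 CPM in control cells against 5.85 and 5.18 CPM after morphine, and HoxD to 4.22 and 4.45 CPM and 4.07 and 4.40 CPM (exact permutation p = 0.67 for each). HoxC gave the same p. The differences of HoxB, HoxC and HoxD turned sign when single libraries were left out.

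**Figure D3:**
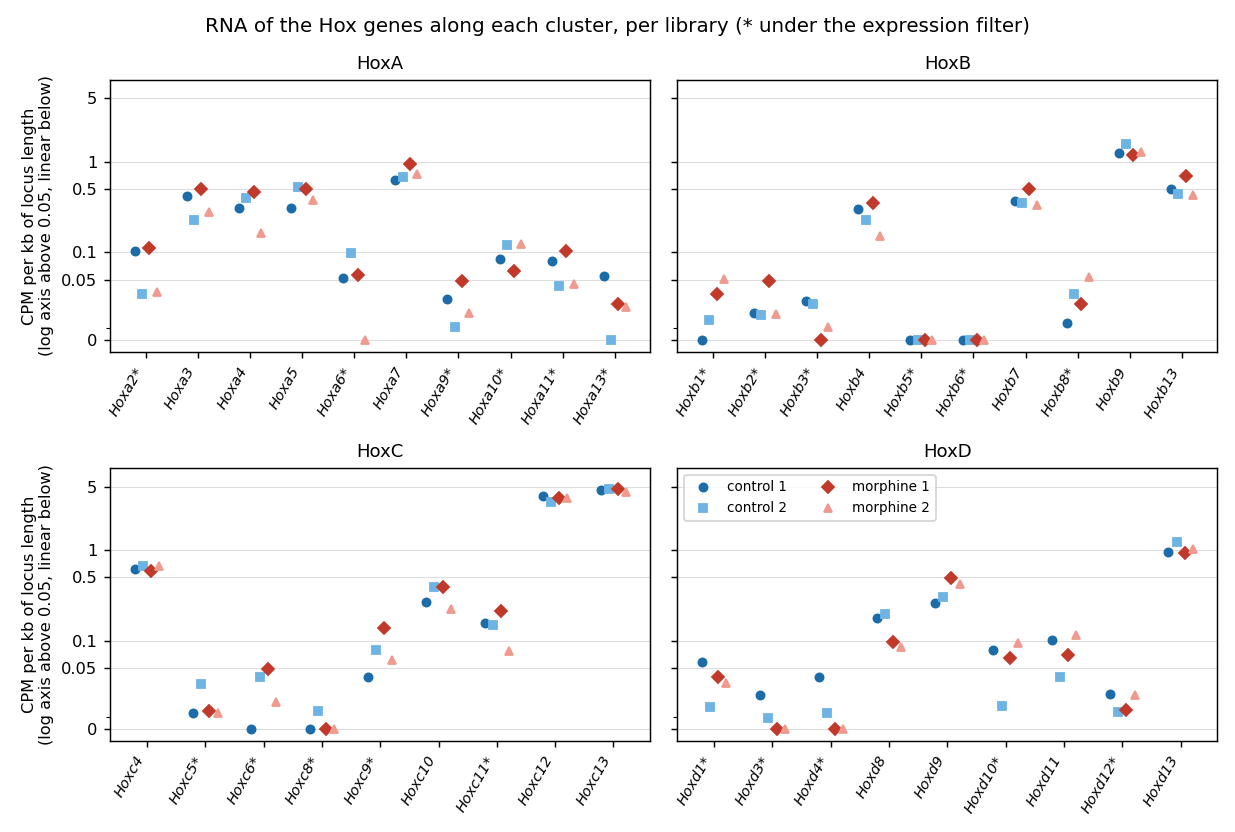
Level of 38 of the 39 Hox genes in each library, as CPM per kb of locus length (log axis above 0.05, linear below), in the order of the paralogous groups along each cluster. An asterisk marks genes under the expression filter. Hoxc13 and Hoxc12 lie highest in all 4 libraries, and the anterior genes of HoxB and HoxD other than Hoxb4 lie near 0.

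Hoxc13, a gene of skin appendages and hair, took 311 and 342 counts in control cells against 288 and 300 after morphine. Its neighbour Hoxc12 took 363 and 334 counts in control cells against 319 and 354 after morphine. Per kb of locus, Hoxc13 stood at 4.71 ± 0.0866 (SD, n = 2) CPM in control cells against 4.53 ± 0.212 (SD, n = 2) after morphine, at the 55.7th percentile of the 20350 tested loci. Hoxc12 stood at 3.66 ± 0.393 and 3.75 ± 0.00764 (SD, n = 2 each) CPM per kb. The level of both genes was thus near the middle of the tested loci, and the groups overlapped. The Hoxc13 locus shares exonic bases with an unnamed locus on the other strand that took 42, 50, 41 and 48 counts in control 1, control 2, morphine 1 and morphine 2. Whether the counting used strand is not stated, so these reads may be shared.

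Hoxb9, a posterior gene, took 93 and 125 counts in control cells against 80 and 98 after morphine. Hoxd13, which patterns digits and the urogenital tract, took 65 and 90 counts in control cells against 59 and 72 after morphine. In both genes the libraries of the groups overlapped after scaling.

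Genes between these high points were low. The anterior and central genes past the filter included Hoxa3, Hoxa4, Hoxa5, Hoxa7, Hoxb4, Hoxb7, Hoxc4 and Hoxd8. Hoxc4 took 44 and 50 counts in control cells against 38 and 48 after morphine. Hoxa7 took 34 and 39 counts in control cells against 46 and 40 after morphine. Hoxa4 took 13 and 18 counts in control cells against 18 and 7 after morphine, a spread within the morphine group that was wider than the difference between the groups. Hoxa3, whose locus overlaps the antisense RNAs Hoxaas2 and Hoxaas3, took 29 and 17 counts in control cells against 32 and 20 after morphine.

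Hoxa5, a gene of lung and neck patterning, took 16 and 29 counts in control cells against 24 and 20 after morphine (log2 fold change 0.06 ± 0.35, SE). Hoxb4, known for its action in blood stem cells, took 21 and 17 counts in control cells against 23 and 11 after morphine (-0.06 ± 0.41, SE). Hoxb7 took 13 and 13 counts in control cells against 16 and 12 after morphine (0.20 ± 0.39, SE). The groups overlapped in these 3 genes. Among the posterior genes, Hoxb13, a prostate and tail gene, took 18 and 17 counts in control cells against 23 and 16 after morphine (0.25 ± 0.36, SE). Hoxc10 took 14 and 22 counts in control cells against 19 and 12 after morphine (-0.12 ± 0.39, SE). Hoxd11, a limb and kidney gene, took 11 and 5 counts in control cells against 7 and 13 after morphine (0.40 ± 0.53, SE), and it passed the filter with 1 library of each group. These changes were smaller than their SE. Of the higher genes, Hoxb9 had a log2 fold change of -0.20 ± 0.17 (SE) and Hoxd13 of -0.15 ± 0.20 (SE). For the others of low level it was 0.27 ± 0.38 (SE) for Hoxa3, -0.21 ± 0.47 (SE) for Hoxa4 and -0.04 ± 0.22 (SE) for Hoxc4.

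Of the 22 genes under the filter, the counts ran from 0 to 9 in a library and summed to at most 28 over the 4 libraries. Hoxb5 and Hoxb6 took 0 counts in every library, which allows a level of up to 0.109 and 0.102 CPM in control cells against 0.118 and 0.106 CPM after morphine (3 counts, counting error only). Hoxb3 took 3 and 3 counts in control cells against 0 and 1 after morphine, and Hoxb1 0 and 1 in control cells against 2 and 3 after morphine. Such counts are at the limit of detection at this depth.

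Between the groups, no Hox gene passed the test. Of the 17 genes past the filter, 0 were called at FDR 0.05 by edgeR's quasi-likelihood test, against 309 of 20350 tested loci (1.52%), 0.614% higher and 0.904% lower. With trends of GC content and locus length removed, 88 loci were called, 58 higher and 30 lower, against 125 higher and 184 lower without, and again 0 Hox genes. At an unadjusted p below 0.05 the count was 0 of 17, against 20.5% of all tested loci. The likelihood ratio test gave 1 gene at this p, the exact test 0 and DESeq2 0, and DESeq2 gave no adjusted p for any of the 17. Log2 fold changes were above 0 in 9 genes and below 0 in 8, with a median of 0.04 against 0.00 over all tested loci.

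The groups did not overlap in 3 of the 17 genes, Hoxd9 and Hoxa7 being higher and Hoxd8 lower after morphine. Of all tested loci, 26.0% were higher without overlap and 26.8% lower, against 11.8% and 5.88% of the tested Hox genes. Hoxd9, a posterior gene of limb and trunk, stood at 0.545 and 0.645 CPM in control cells against 1.03 and 0.887 CPM after morphine. Its log2 fold change was 0.67 ± 0.32 (SE), with an adjusted p of 0.252 in edgeR's quasi-likelihood test. Hoxd8 took 10 and 12 counts in control cells against 5 and 5 after morphine, and its log2 fold change was -1.03 ± 0.49 (SE), with an adjusted p of 0.265 in edgeR. It passed the filter by its control libraries only, so a lower level after morphine was part of its selection. Hoxa7 stood at 1.24 and 1.32 CPM in control cells against 1.82 and 1.42 CPM after morphine, with a log2 fold change of 0.33 ± 0.24 (SE) and an adjusted p of 0.484 in edgeR. It was 0.15 without morphine replicate 1 and 0.50 without morphine replicate 2.

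For the 7 genes with 100 or more counts over the 4 libraries, the SE of the log2 fold change was at most 0.24, and for Hoxc13 and Hoxc12 it was 0.09 and 0.10 around changes of -0.06 and 0.04. For the 10 genes with fewer counts, the SE was at least 0.315.

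**Figure D4:**
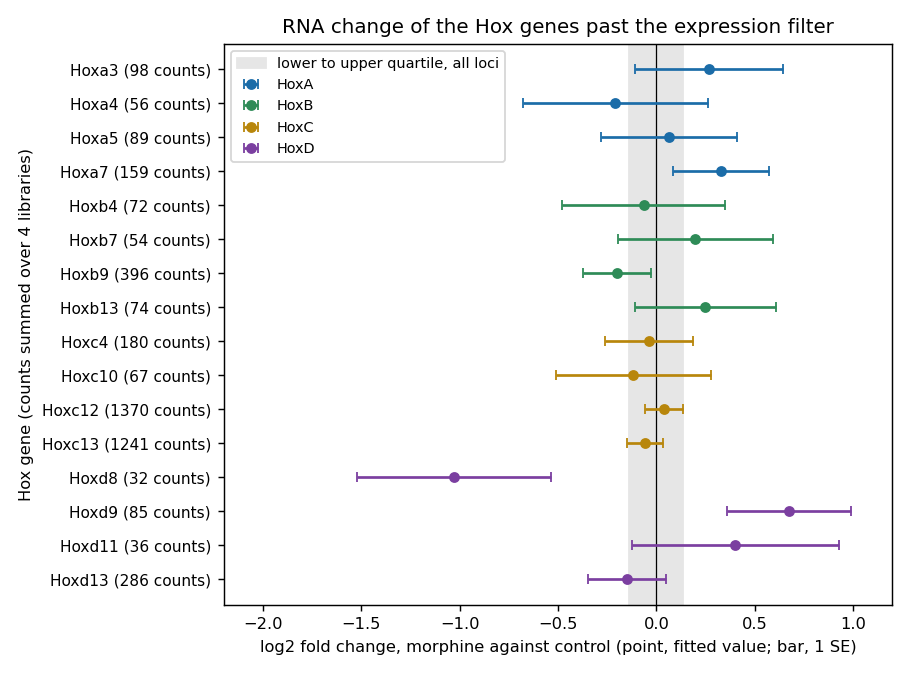
Log2 fold change of RNA, morphine against control, for 16 of the 17 Hox genes past the expression filter (points, fitted values; bars, 1 SE), colored by cluster, with the counts summed over the 4 libraries. The grey band runs from the lower to the upper quartile of all tested loci, -0.14 to 0.14. The bars of Hoxd9, Hoxd8, Hoxa7 and Hoxb9 clear 0, but that of Hoxb9 moves to -0.018 without control replicate 2, and none of the 17 genes passed FDR 0.05.

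Other RNAs of the clusters were compared in the same fit. The locus of Gm53, which lies between Hoxb13 and Hoxb9, took 592 and 607 counts in control cells against 493 and 564 after morphine. Its log2 fold change was -0.09 ± 0.07 (SE), with an adjusted p of 0.522 in edgeR. An unnamed locus next to it took 179 and 151 counts in control cells against 124 and 136 after morphine (log2 fold change -0.26 ± 0.15 (SE), adjusted p of 0.357 in edgeR). A further unnamed locus near Hoxb13 took 13 and 13 counts in control cells against 10 and 8 after morphine (-0.43 ± 0.42, SE). In HoxA, Hotairm1 took 20 and 22 counts in control cells against 21 and 41 after morphine, and Mira took 38 and 39 counts in control cells against 31 and 48 after morphine. Haglr, the antisense RNA of HoxD, took 0 and 0 counts in control cells against 1 and 6 after morphine, and Hotair, the noncoding RNA of HoxC, 0 and 2 and 0 and 2. Hairpin loci of Mir10a, Mir10b, Mir196a-2, Mir196b and Mir615 were at 0 in every library, but the libraries hold polyadenylated RNA. Of the 17 named noncoding RNAs of the clusters in the table, 3 were tested and 0 called (Hotairm1 at 0.64 ± 0.33 (SE), Mira at 0.12 ± 0.25 (SE) and Halr1). Halr1, a noncoding RNA outside HoxA, stood at 77.4 and 71.6 CPM in control cells against 73.7 and 71.7 CPM after morphine, with a log2 fold change of -0.04 ± 0.06 (SE).

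Of the 9 TALE cofactors, all were tested and 0 called, with 3 log2 fold changes above 0 and 6 below. The largest were those of Pbx4 (0.31 ± 0.17, SE) and Meis3 (0.23 ± 0.23, SE), and Meis1 (-0.13 ± 0.14, SE) was among those below 0. Of the 21 upstream regulators, 11 were tested and 0 called, with 7 above 0 and 4 below. Cdx4 (0.54 ± 0.37, SE) and Cdx1 (0.48 ± 0.22, SE), caudal-type activators of Hox genes, had the highest values, and Gdf11 (-0.70 ± 0.25, SE) and Gsx1 (-0.67 ± 0.42, SE) the lowest. Of the 34 other homeobox genes, which share Cdx and Gsx genes with that list, 13 were tested and 0 called, with 11 above 0 and 2 below. Besides Cdx4 and Gsx1, their extremes were Nkx2-9 (0.51 ± 0.25, SE) and Msx2 (-0.21 ± 0.35, SE). Of the developmental transcription factor genes, 56 were tested and 0 called, with 33 above 0 and 23 below.

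Of the 27 trithorax and Polycomb regulators, all were tested, with 10 log2 fold changes above 0 and 17 below, and 1 was called, in the lower direction, against 0.904% of all tested loci called lower and 1.52% in either direction. Psip1, which encodes a chromatin reader that works with the MLL complex at Hox genes, fell from 285 and 289 CPM in the control to 236 and 256 CPM after morphine (log2 fold change -0.22 ± 0.05 (SE), adjusted p of 0.0498 in edgeR). The lowest values were those of Kdm6a (-0.24 ± 0.06, SE), an H3K27 demethylase, and Bmi1 (-0.23 ± 0.09, SE), a Polycomb subunit, with adjusted p of 0.0671 and 0.181 in edgeR. Pcgf2 (0.19 ± 0.05, SE) and Men1 (0.18 ± 0.05, SE) had the highest values, also not called. Of the 19 genes beside the clusters in the table, 17 were tested and 1 was called, also lower, against the same 0.904% of all tested loci. Cbx5, which encodes the heterochromatin protein HP1 alpha and lies beyond Hoxc4, fell from 468 and 406 CPM in the control to 335 and 359 CPM after morphine (log2 fold change -0.33 ± 0.06 (SE), adjusted p of 0.0342 in edgeR). Both calls were lost when trends of the libraries with GC content and locus length were removed (adjusted p of 0.381 for Psip1 and 0.0855 for Cbx5 in edgeR), where the log2 fold changes were -0.079 and -0.19. They were also lost without morphine replicate 1 (adjusted p of 0.427 and 0.387 in edgeR), where the log2 fold changes were -0.17 and -0.28 and 13 loci were called in all. Hnrnpa1 (-0.17 ± 0.04, SE) was the next lowest of the neighbours, and Snx11 (0.16 ± 0.06, SE) and Calcoco1 (0.13 ± 0.06, SE) were the highest, none of them called. Evx1, the homeobox gene next to Hoxa13, was at 0.327 and 0.272 CPM in control cells against 0.276 and 0.284 CPM after morphine, and Evx2 beside Hoxd13 was at 0 in every library.

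Log2 fold changes rose with the GC content of the locus across the tested loci. The Spearman correlation was 0.485 over the 20325 tested loci with a GC value, in the same 4 libraries, as a description. The tested Hox genes had a median GC content of 53.3% (range 47.4 to 60.8%), against 49.7% over all tested loci. With these trends removed, the median of the 17 Hox genes moved from 0.04 to -0.07. The log2 fold change of Hoxd9 moved from 0.67 to 0.50, that of Hoxa7 from 0.33 to 0.19 and that of Hoxd8 from -1.03 to -1.04. The part of GC content in these values was not tested further.

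RNA and peaks could be set side by side for all 39 genes. Genes with high RNA (Hoxc13, Hoxc12, Hoxb9 and Hoxd13) and the genes at 0 (Hoxb5 and Hoxb6) alike had no peak within 10 kb of a TSS in any library. The TSS nearest to a peak was that of Hoxc13 in control 1 (20.9 kb), and that of Hoxd1 in morphine 1 (24.7 kb). In the other libraries it was that of Hoxd1 in control 2 (36.3 kb) and that of Hoxb13 in morphine 2 (38.6 kb). Hoxd1 took 3 and 1 counts in control cells against 2 and 2 after morphine.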

How the data were processed

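H3K27me3 was profiled by ChIP-Seq and RNA by RNA-Seq, each in 2 control and 2 morphine libraries, grouped by their labels. Trim Galore 0.6.2 is named in the submitters' processing notes. The authors aligned ChIP reads to mm10 with Bowtie2 2.3.5.1 and called peaks with MACS in each library. The deposited peak lists give positions and a score (a multiple of the negative log10 of the p-value). The authors aligned RNA with HISAT2 2.1.0, assembled loci with StringTie 1.3.6 and deposited raw counts per locus from featureCounts 1.6.4. The treatment of multimapping reads and of strand in counting is not stated, and overlapping loci carried the same reads. The antibody's supplier differs between the labels and the methods.

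Loci were kept by filterByExpr (10 counts in a median library, 0.358 CPM, in 2 libraries), scaled by TMM and compared across all loci with glmQLFit and glmQLFTest of edgeR 4.0.16 in R 4.3.3 (quasi-likelihood test, Benjamini-Hochberg adjustment). The SE was taken from the F statistic. Alternatives were DESeq2 1.42.0, other edgeR tests and size factors, no filter, a replicate block, removal of GC and length trends, stricter peaks and leaving out each library. Promoters were 1 kb on either side of a TSS of GENCODE vM21 basic. For peak measures, an exact permutation test over libraries was run, two-sided (Python 3.11.15, scipy 1.17.1), which cannot go below 0.33. Scripts were tested on simulated data. The Hox genes past the filter are given with values and the others by range, except that values of 1 Hox gene and 1 cofactor are not reported here. Of the lists of cofactors, regulators, trithorax and Polycomb genes, neighbours and noncoding RNAs, genes past FDR 0.05 and the 2 highest and 2 lowest changes are named. Cell type markers and developmental genes are given by counts. Members and lists were chosen with earlier results of these data known.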

Additional observations from a re-analysis of the deposited data

How the results depend on the processing

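The count of Hox genes called was 0 under every alternative that gave an adjusted p for them. All loci called numbered 309, against 1657 without the count filter, 790 by the exact test, 840 by the likelihood ratio test, 652 by DESeq2, 1128 with the replicate block, 88 with GC and length trends removed (58 higher and 30 lower) and 490 with one locus per gene name (chosen after seeing the data). Leaving out one library gave 13 (without morphine replicate 1) to 1619 (without control replicate 2), with 604 without morphine replicate 2, where the lone library of a group was assumed to vary like the other group. The causes were not tested.

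Whether the replicate numbers pair the libraries is not stated. Across tested loci, the deviations of control 1 and morphine 1 RNA libraries from their group means had a correlation of 0.0145. A value near 0 can also occur in paired libraries, so it does not decide this, and ChIP libraries were not examined. With the replicate block 0 Hox genes were called. For peak measures and summed levels, the mean of the paired differences is by construction the difference of the group means.

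With GC and length trends removed, Hoxc12 moved from 0.04 to -0.069. Leaving out one library gave log2 fold changes of -0.19 to 0.75 for Hoxa3, -1.12 to 0.39 for Hoxa4, -0.26 to 0.50 for Hoxa5, -0.11 to 0.56 for Hoxb13, -0.77 to 0.44 for Hoxb4, -0.10 to 0.47 for Hoxb7, -0.56 to 0.25 for Hoxc10, -0.063 to 0.15 for Hoxc12, -0.14 to 0.046 for Hoxc4, -0.094 to 1.11 for Hoxd11 and -0.32 to 0.056 for Hoxd13. For genes that kept their sign the range was -0.36 to -0.018 for Hoxb9, 0.15 to 0.50 for Hoxa7, -0.11 to -0.010 for Hoxc13, 0.56 to 0.81 for Hoxd9 and -1.11 to -0.94 for Hoxd8. No other alternative turned the sign of a tested Hox gene. The covered share and the promoter count in the clusters stayed at 0 under their alternatives. Wider margins, wider promoters and other start sites could have raised them, while stricter peaks and left-out libraries could not. The binding sites were recounted only with a stricter overlap of 50%, which could not raise their count of 0. Leaving out one library moved the differences in summed CPM (morphine minus control) to between 0.273 and 1.10 for HoxA, -0.600 and 0.0638 for HoxB, -0.779 and 0.412 for HoxC, and -0.264 and 0.0687 for HoxD, and HoxC gave 0.184 on total counts. With scores of at least 100, the mean difference in distance to the nearest peak (morphine minus control) moved from 50.9 to 313 kb for HoxA, -2.52 to 3.30 kb for HoxB, 59.4 to -42.5 kb for HoxC and -5.79 to -131 kb for HoxD. With equal numbers of peaks it was 0.127, -2.52, 23.1 and -15.3 kb, and leaving out one library gave -77.0 to 179 kb, -5.33 to 0.279 kb, 9.43 to 109 kb and -21.0 to 9.45 kb, in the same order. Read counts under peaks were not analysed here.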

Other observations

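Peaks of these libraries lay more often at promoters of genes with RNA. Of 13498 protein-coding genes with a locus past the expression filter, 20.4% and 20.9% had a promoter peak in control cells against 21.2% and 21.8% in morphine-treated cells. Of 6609 without one, 10.6% and 11.4% had one in control cells against 10.3% and 11.2% in morphine-treated cells. The 250 bases at the centre of a peak held a median of 2 and 2 CpG in control cells against 3 and 2 in morphine-treated cells, and 13 or more in 7.5% and 4.88% and in 11.8% and 7.39% of peaks. No explanation was tested.

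In 12 of the 17 tested Hox genes the level was higher in morphine replicate 1 than in morphine replicate 2, and in 6 of 17 it was higher in control replicate 1 than in control replicate 2. Over all tested loci these shares were 48.8% and 49.7%. Among the low genes that differed in this way, Hoxa3 stood at 1.26 and 0.710 CPM, Hoxb4 at 0.908 and 0.390 CPM and Hoxa4 at 0.711 and 0.248 CPM in morphine replicates 1 and 2.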
